A study of Nothobranchius furzeri with 16 samples.

Results

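The mitochondrial ribosomal proteins are the protein subunits of the ribosome inside mitochondria, and their transcripts were followed in the brain of the turquoise killifish, Nothobranchius furzeri, which lives for only a few months, after in vivo inhibition of the proteasome. Members were all rows of the deposited expression table whose symbol begins with MRPL (large subunit) or MRPS (small subunit) and a digit, and that reached at least 1 TPM (a level scaled for transcript length and for the total of the library) in at least 8 fish. This gave 64 of the 26739 rows, 29 of the small and 35 of the large subunit, with 62 distinct symbols. MRPS35 had 3 rows. A 65th row, a second one named MRPS11, stayed below the minimum, at 0 to 0.336 TPM with bortezomib and 0 to 0.242 TPM with vehicle. The subunit was taken from the symbol. By structure, MRPS18A and MRPS30 belong to the large subunit in mammals, and MRPS36 is now known as a component of the 2-oxoglutarate dehydrogenase complex.

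The study compared 8 fish injected with bortezomib at 500 µM and 8 fish injected with vehicle, 1% DMSO in salt solution. All were adults of 12 to 14 weeks post hatching, came from 1 hatch, and were allocated at random, with males and females in each group. They received 5 intraperitoneal injections of 10 µl per g body weight, 6 days apart (days 0 to 24), in a treatment of 4 weeks. Each library came from the brain of 1 fish. The sources used here give no strain, no sex for single fish and no batch of the libraries.

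Mitochondrial ribosomes translate the few proteins encoded by mitochondrial DNA, all of them subunits of the respiratory chain and ATP synthase. Their protein subunits are encoded in the nucleus, made in the cytosol and imported, so each subunit is made in the cytosol before it meets the ribosomal RNA made in the mitochondrion. About the core inherited from bacteria lie subunits found only in mitochondria. Bortezomib blocks the chymotrypsin-like site of the proteasome, the complex that degrades ubiquitin-tagged proteins, and cells with blocked proteasomes are known to raise transcription of proteasome subunit genes.

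The samples carried brain markers, and several measures beside the treatment differed between fish. The summed level of 8 neuron marker rows was 3770 to 4349 TPM with bortezomib and 2518 to 3544 TPM with vehicle, with no overlap. No row was at 0 in all fish, and the sum was made up mostly of SNAP25 and STMN2 rows. In none of the 8 rows were all bortezomib fish above all vehicle fish. The log2 fold change lay above 0 in 7 rows and below 0 in 1 (SYT1B). The test described below was passed as higher by 1 of 8 rows (SNAP25 (2 OF 2), a synaptic vesicle fusion protein) and by 3.61% of all tested rows. The 6 oligodendrocyte rows summed to 5207 to 10043 TPM with bortezomib and 6995 to 13355 TPM with vehicle, a sum made up mostly of myelin basic protein (MBP) rows. The 1 oligodendrocyte row that passed, MAG, a myelin adhesion protein, rose by 0.76 ± 0.20 (log2; limma adjusted p = 0.0404), and 1 radial glia row, GLUL (2 OF 2), a glutamine synthetase, fell by 0.28 on the log2 scale (limma adjusted p = 0.0394). Each of these calls held in 6 of 16 fits that left out 1 fish. Both rows went against the rest of their list. The other 5 oligodendrocyte rows had a log2 fold change below 0, 4 of them at an unadjusted limma p under 0.05. Of the 4 radial glia rows tested, 3 lay above 0. Pituitary hormone transcripts summed to 4213 TPM in bortezomib replicate 6, 3696 in bortezomib replicate 7, 6068 in vehicle replicate 5 and 2132 in vehicle replicate 6, against 9.75 to 21.1 TPM in the other fish. Bortezomib replicate 8 stood apart, with a median log2(TPM + 1) over all tested rows of 3.55 against 3.83 to 4.02 in the other bortezomib fish and 3.72 to 3.95 in vehicle fish. The part of these differences in the results was not tested, and in whole brains a change in the number of cells of a type and a change in RNA per cell cannot be told apart.

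Mitochondrial ribosomal protein transcripts were abundant and, at the median, varied less from fish to fish than all tested rows. Averaged over all 16 fish, a member row had a median level of 55.0 TPM, with a range of 7.30 to 257 TPM, against a median of 13.6 TPM over the 18529 tested rows. The median was 46.8 TPM for small-subunit rows and 61.4 TPM for large-subunit rows. The most abundant small-subunit rows were MRPS23, at 268.3 ± 31.2 TPM with bortezomib and 246.3 ± 21.2 TPM with vehicle, and one MRPS35 row, at 163.6 ± 12.0 TPM with bortezomib and 168.2 ± 14.3 TPM with vehicle (SD, n = 8 each). In the large subunit they were MRPL27, with 222.0 ± 16.1 TPM in bortezomib and 206.4 ± 27.9 TPM in vehicle fish, and MRPL9, with 121.8 ± 13.8 TPM in bortezomib and 124.5 ± 7.93 TPM in vehicle fish. The median SD between fish of a group was 0.11 log2 units for members in bortezomib fish, against 0.25 over all tested rows, and 0.12 for members in vehicle fish, against 0.24 over all tested rows. The highest SD of a member was 0.73 in bortezomib fish and 0.81 in vehicle fish. Rows of like level were not compared, so the part of the higher level in this lower spread was not tested.

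4 members rose with bortezomib and none fell: MRPS16, MRPS18C and MRPS14 of the small subunit and MRPL28 of the large subunit. The increases were small, 0.22 to 0.28 on the log2(TPM + 1) scale. The test was limma with an intensity trend on log2(TPM + 1), over all 18529 tested rows, two-sided, with Benjamini-Hochberg adjusted p under 0.05. The 4 of 64 members that were higher make 6.25%, against 3.61% of all tested rows. Of the tested rows, 1.25% were lower. At an unadjusted p under 0.05, 19 of 64 members (29.7%) were higher and 0 were lower, against 14.2% and 6.94% of all tested rows. The fold change lay above 0 in 52 of 64 members, 81.2%, against 56.6% of all tested rows. The median log2 fold change was 0.11 for members, with a range of -0.16 to 0.29, and 0.03 for all tested rows. In no member were all 8 bortezomib fish above, or all below, the 8 vehicle fish, which held for 1.08% and 0.221% of all tested rows.

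**Figure D1:**
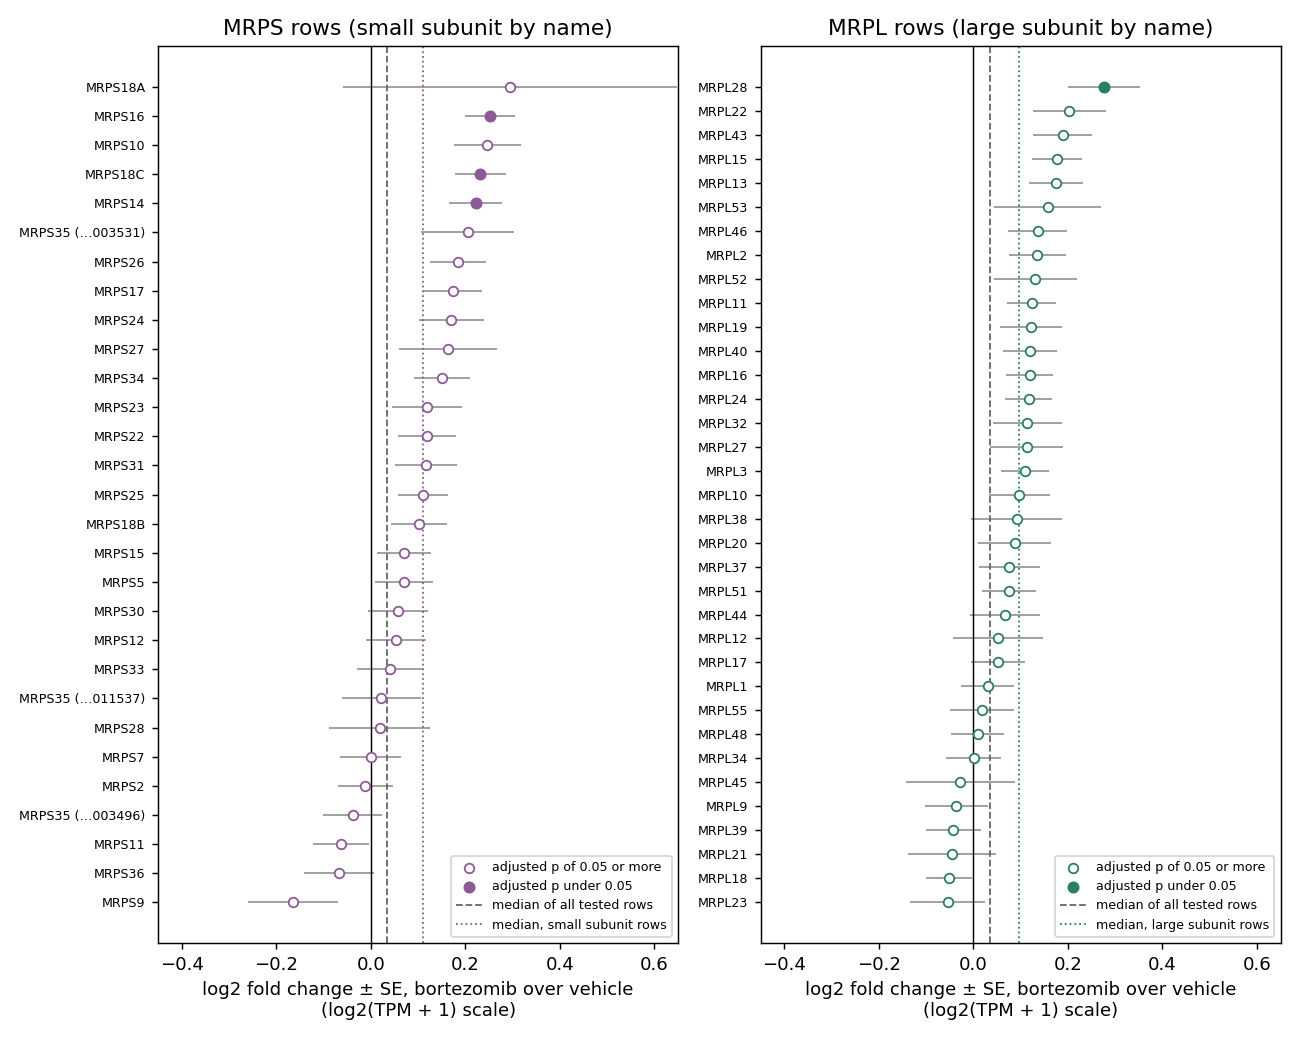
Log2 fold change, bortezomib over vehicle, of each of the 29 small-subunit rows and the 35 large-subunit rows, ordered by value, with bars of 1 standard error from limma on log2(TPM + 1), 8 fish in each group. Filled points mark the 4 rows past an adjusted p of 0.05; values run from -0.16 for MRPS9 to 0.29 for MRPS18A.

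All 4 calls depended on the scaling between fish. With median-of-ratios, upper-quartile or quantile scaling in place of TPM as deposited, 0 members passed limma's adjusted threshold, and 6, 6 and 5 members were higher at an unadjusted p under 0.05. The share of all tested rows at that unadjusted p was not taken under these scalings, so the counts cannot be set against it. The median over all tested rows was then 0.01, 0.00 and -0.01, and the members' median was 0.07, 0.06 and 0.04. The fold change lay above 0 in 46, 45 and 41 members, against 52 on the deposited scale. Calls over all rows were 669 higher and 232 lower on the deposited scale, 534 and 421 with median-of-ratios, 502 and 455 with upper-quartile, and 549 and 563 with quantile scaling. Without the 4 fish with pituitary transcripts, 0 members passed, while the log2 fold changes over the 12 fish left were 0.24 for MRPS16, 0.21 for MRPS18C, 0.20 for MRPS14 and 0.31 for MRPL28, against 0.25, 0.23, 0.22 and 0.28 over all 16 fish. With these 4 fish left out, 1.40% of all tested rows were higher, against 3.61% over all 16 fish. The median log2 fold change of the 64 members was then 0.07, and that of all tested rows 0.02. Of the members, 47 then lay above 0 and 7 were higher at an unadjusted limma p under 0.05. Over all 16 fish the medians were 0.11 and 0.03, and the counts 52 and 19. The matching shares of all tested rows were not taken over the 12 fish, so a change particular to members cannot be read from these counts.

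**Figure D2:**
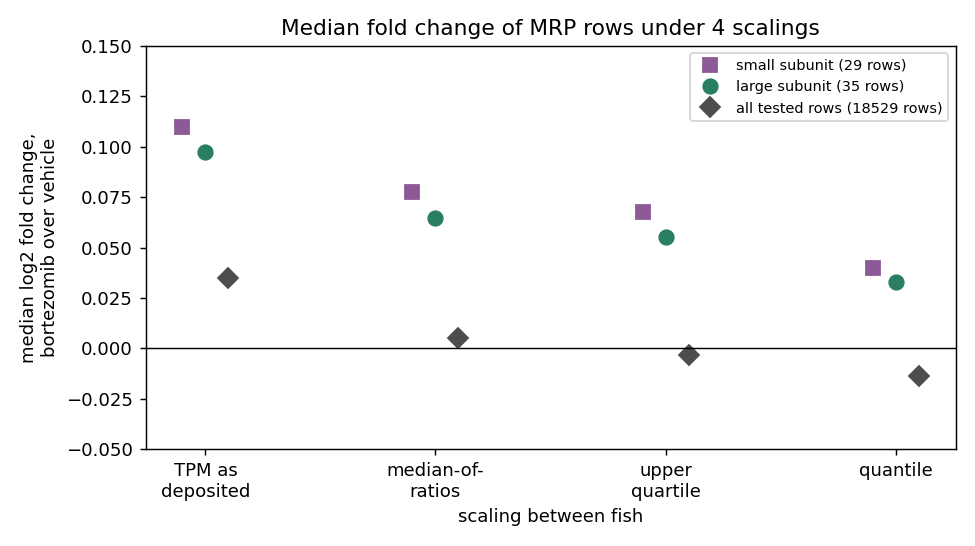
Median log2 fold change, bortezomib over vehicle, of the small-subunit rows (squares), the large-subunit rows (circles) and all tested rows (diamonds) under 4 scalings between fish. The members' medians lie above the median of all tested rows under each of the 4 scalings, and both are lowest under quantile normalization. Median-of-ratios and upper-quartile scaling divide each fish by a single factor, which shifts most rows alike, so they could hardly change this gap.

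MRPS16, a core small-subunit protein with a bacterial counterpart, whose human gene is mutated in a mitochondrial translation disorder, gave the lowest p of the members. It had 117 TPM in the lowest bortezomib fish, 138 at the median and 148 in the highest, against 109, 113 and 122 TPM in vehicle fish. Only the lowest bortezomib fish lay within the vehicle range. The mean was 135.6 ± 10.4 TPM with bortezomib and 113.4 ± 4.35 TPM with vehicle (SD, n = 8 each), a log2 fold change of 0.25 ± 0.05 (SE) with a limma adjusted p of 0.0114. The call held in all 16 fits that left out 1 fish, and its adjusted p was 0.0895 to 0.107 under the other scalings and 0.0763 with the pituitary-carrying fish left out.

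MRPS18C, one of the paralogs related to bacterial S18 in the vertebrate mitochondrial ribosome, lay at 38.1, 43.3 and 44.7 TPM (lowest, median and highest) in bortezomib fish, against 32.8, 36.4 and 38.3 TPM in vehicle fish. The ranges met only at their ends. Its means were 42.4 ± 2.39 TPM with bortezomib and 36.0 ± 1.98 TPM with vehicle, a log2 fold change of 0.23 ± 0.05 with a limma adjusted p of 0.0212. This call too held in all 16 fits without 1 fish, with an adjusted p of 0.0639 to 0.0891 under the other scalings and 0.087 with the pituitary-carrying fish left out.

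MRPS14, a core protein of the small-subunit head, had 127, 132.9 and 156 TPM (lowest, median and highest) in bortezomib fish, against 102, 114 and 127 TPM in vehicle fish. The lowest bortezomib fish and the highest vehicle fish were almost equal, and bortezomib replicate 8 was well above the others. The log2 fold change was 0.22 ± 0.06 with a limma adjusted p of 0.0313. The call held in 11 of 16 fits without 1 fish and was lost when bortezomib replicate 4, bortezomib replicate 6, or vehicle replicate 3, 7 or 8 was left out, where the adjusted p reached 0.0586. Under the other scalings its log2 fold change was 0.12 to 0.19 with an adjusted p of 0.16 to 0.239. With the pituitary-carrying fish left out, the adjusted p was 0.12.

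MRPL28, a large-subunit protein with a bacterial counterpart, ran from 102.0 through 122 to 147 TPM in bortezomib fish, against 82.9, 99.6 and 116 TPM in vehicle fish. The ranges overlapped over a wider span than those of the other members that rose. Its log2 fold change was the largest of the 4, 0.28 ± 0.08, with a limma adjusted p of 0.0449. This call held in 3 of 16 fits without 1 fish, those without bortezomib replicate 1, bortezomib replicate 3 or vehicle replicate 6, and the adjusted p reached 0.0941 in the others. Its adjusted p was 0.15 to 0.162 under the other scalings and 0.0999 with the pituitary-carrying fish left out.

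**Figure D3:**
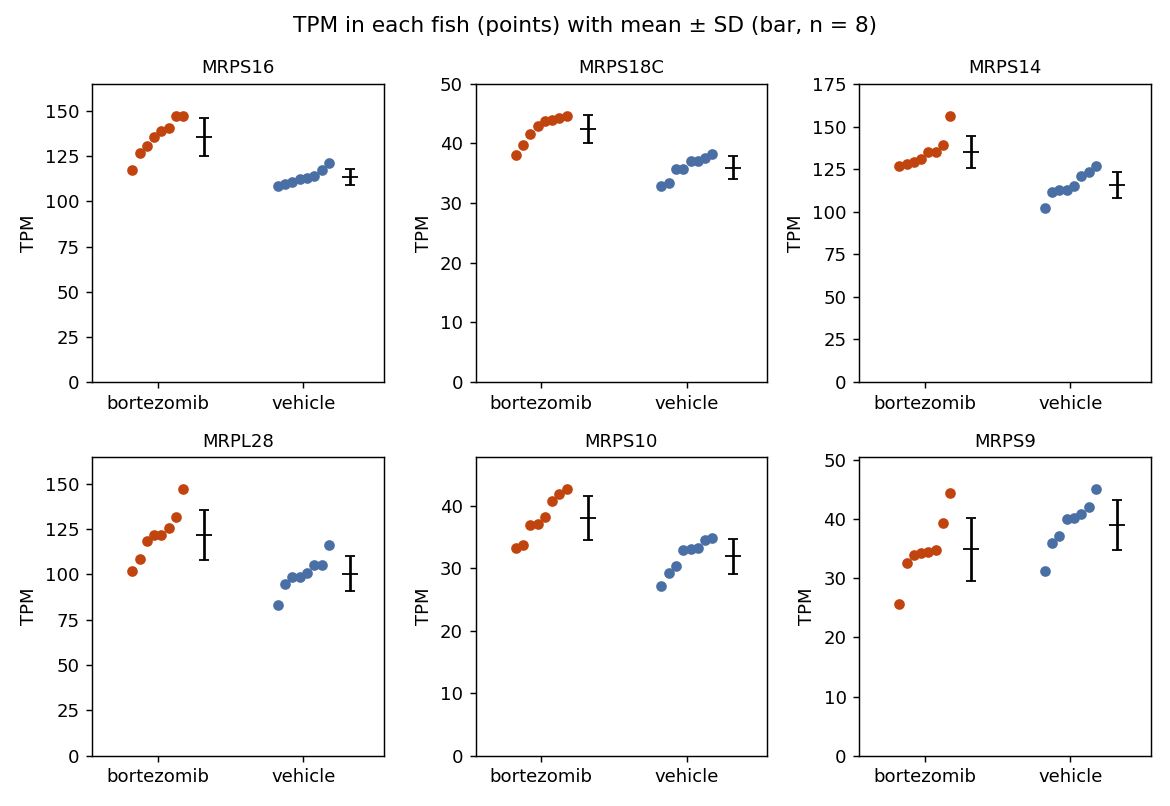
TPM of the 4 members that rose, of MRPS10 and of MRPS9 in each of the 8 bortezomib fish (left) and the 8 vehicle fish (right), 1 point a fish, with the group mean and SD. Bortezomib and vehicle ranges overlap in every panel.

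Of the 60 members that did not pass, MRPS10 came nearest. This small-subunit core protein averaged 38.02 ± 3.51 TPM with bortezomib and 31.9 ± 2.75 TPM with vehicle, a log2 fold change of 0.25 ± 0.07 with a limma adjusted p of 0.0547. It passed without bortezomib replicate 3 or 7. At the other end, MRPS9, another core small-subunit protein, had the lowest fold change of all members, at 34.9 ± 5.36 TPM with bortezomib and 39.1 ± 4.25 TPM with vehicle, a log2 difference of -0.16 ± 0.10 with a limma adjusted p of 0.334. The next lowest were MRPS36 (-0.07), MRPS11 (-0.06), MRPL23 (-0.05) and MRPL18 (-0.05), and none of these passed.

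Beside MRPS16 and MRPS18C, which rose, 8 further members with known particular roles did not pass the test. In MRPL12, which in mammals also binds the mitochondrial RNA polymerase, and MRPL11, part of the stalk base where translation factors bind, the log2 differences were 0.05 ± 0.10 and 0.12 ± 0.05. MRPL3, beside the peptidyl transferase centre, and MRPL44, both mutated in human cardiomyopathy, differed by 0.11 ± 0.05 and 0.07 ± 0.07. In the small subunit, MRPS12, of the decoding centre, differed by 0.05 ± 0.06, MRPS22 by 0.12 ± 0.06 and MRPS7 by far less than its SE of 0.07. MRPS30, which lies in the large subunit, differed by 0.06 ± 0.06. The limma adjusted p of these 8 members was 0.188 or above.

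Small- and large-subunit rows had close median fold changes. Of 29 small-subunit rows, 3 rose, 8 were higher at an unadjusted p under 0.05 and 23 lay above 0, with a median log2 fold change of 0.11. Of 35 large-subunit rows, 1 rose, 11 were higher at an unadjusted p under 0.05 and 29 lay above 0, with a median of 0.10. The shares over all tested rows were 3.61%, 14.2% and 56.6%. The per-fish mean log2(TPM + 1) of the small subunit was 5.53 ± 0.04 in bortezomib fish and 5.43 ± 0.06 in vehicle fish, and that of the large subunit was 5.89 ± 0.05 in bortezomib fish and 5.81 ± 0.05 in vehicle fish. Within each fish, the small-subunit mean minus the large-subunit mean was -0.37 ± 0.04 with bortezomib and -0.38 ± 0.04 with vehicle, so the groups differed by 0.01, less than the spread between fish. Summed over the small subunit, the level was 1834 ± 82.3 TPM with bortezomib and 1707 ± 63.0 TPM with vehicle. Summed over the large subunit, it was 2397 ± 105 TPM with bortezomib and 2254 ± 86.0 TPM with vehicle. With MRPS18A and MRPS30 moved to the large subunit and MRPS36 left out, 3 of 26 small-subunit and 1 of 37 large-subunit rows rose.

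All 4 members that rose belong to the 38 rows with a bacterial counterpart, of which 15 (39.5%) were higher at an unadjusted p under 0.05. Of the 25 rows found only in mitochondria, 0 passed limma's adjusted threshold and 4 (16%) were higher at an unadjusted p under 0.05. Among all tested rows, 3.61% passed as higher and 14.2% were higher at an unadjusted p under 0.05. The median level was 62.9 TPM for rows with a bacterial counterpart and 46.2 TPM for rows found only in mitochondria. The median log2 fold change was 0.11 in both classes, and the difference between them was not tested.

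The 3 rows of the S18 family differed in level and in spread between fish. MRPS18B averaged 17.9 ± 0.961 TPM with bortezomib and 16.6 ± 1.13 TPM with vehicle, a log2 difference of 0.10 ± 0.06 that did not pass. MRPS18A had the highest fold change of all members and the widest spread, 0.29 ± 0.35 with a limma adjusted p of 0.659. In bortezomib fish it was at 35.2, 74.9, 31.7, 31.6, 34.9, 36.2, 130.1 and 34.6 TPM in replicates 1 to 8, and in vehicle fish at 25.4, 23.8, 91.1, 28.1, 89.9, 29.3, 23.9 and 28.5 TPM. In each group, 2 fish were above 50 TPM, a limit chosen after the values were seen. The other 6 bortezomib fish lay at 31.6 to 36.2 TPM and the other 6 vehicle fish at 23.8 to 29.3 TPM. Setting fish apart by their own MRPS18A level narrows both ranges, and the difference between them was not tested.

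The rows most like MRPS18A over the 16 fish, of all tested rows, were TMEM63A (Pearson r = 0.97) and RSPH9 (r = 0.93). The third, STRADA, followed at r = 0.76. TMEM63A, a mechanosensitive ion channel, was at 29.5 and 103.8 TPM in bortezomib replicates 2 and 7 and at 1.86 to 5.29 TPM in the other bortezomib fish. It was at 39.1 and 77.3 TPM in vehicle replicates 3 and 5 and at 0.929 to 1.71 TPM in the other vehicle fish. RSPH9, a radial spoke protein of motile cilia, was highest in the same 4 fish. In RefSeq's gene table for this species (assembly NfurGRZ-RIMD1), rsph9 is the gene next to mrps18a and tmem63a the one after that. Of these 4 fish, bortezomib replicate 7 and vehicle replicate 5 also carried pituitary transcripts, and bortezomib replicate 2 and vehicle replicate 3 did not.

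**Figure D4:**
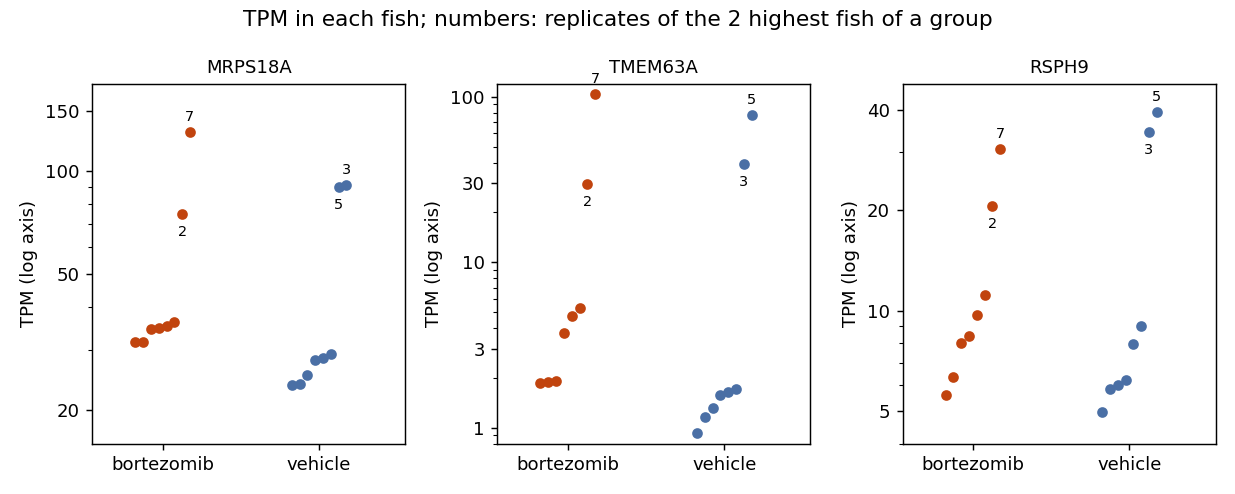
TPM, on log axes, of MRPS18A, TMEM63A and RSPH9 in each bortezomib fish (left) and each vehicle fish (right); the numbers are the replicates of the 2 highest fish of a group. Bortezomib replicates 2 and 7 and vehicle replicates 3 and 5 are the highest of their group in all 3 panels.

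The 3 MRPS35 rows differed in level, and how reads were shared between them is not stated in the sources used here, so their values are uncertain. The middle row was at 15.4 ± 0.897 TPM with bortezomib and 13.4 ± 2.40 TPM with vehicle, a log2 difference of 0.21 ± 0.10. The lowest row was at 7.36 ± 0.838 TPM with bortezomib and 7.23 ± 0.768 TPM with vehicle. None of the 3 passed. MRPS11 and MRPL46, which neighbour each other in the RefSeq gene table, differed by -0.06 ± 0.06 and 0.14 ± 0.06, and neither passed.

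In vehicle fish, the level of mitochondrial ribosomal protein transcripts followed that of proteasome subunit transcripts closely, and in bortezomib fish the relation depended on which fish were included. Of 38 proteasome subunit rows, 37 rose, against 3.61% of all tested rows. The call with the highest adjusted p, PSMC1 (limma adjusted p = 0.0438), held in 4 of 16 fits without 1 fish and under none of the 3 other scalings. That of 1 ADRM1 row held in 7 of 16. The per-fish mean log2(TPM + 1) of the 38 rows was 6.92 ± 0.12 with bortezomib and 6.199 ± 0.06 with vehicle, with no overlap, so the relation is given only within each group. The mean over the mitochondrial ribosomal rows was 5.69 to 5.81 with bortezomib and 5.56 to 5.70 with vehicle. Over 8 bortezomib fish, Pearson's r between these means was -0.07 and Spearman's rho 0.26. Over 8 vehicle fish, r was 0.96 and rho 0.86. These are descriptions with no p, 2 of 8 relations with the proteasome mean that were computed, and the fish within each group share scaling to a common total.

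The bortezomib value rested on single fish. Without replicate 8 it was 0.58, without the 2 fish farthest in proteasome level (replicates 7 and 8) 0.41, and with the pituitary-carrying replicates 6 and 7 left out -0.65. Over the 8 ways to leave out 1 bortezomib fish it ran from -0.48 to 0.58. In vehicle fish it was 0.89 without replicates 5 and 6, which are both the farthest in proteasome level and the fish with pituitary transcripts, and 0.93 to 0.98 with 1 fish left out. The other scalings gave 0.58, 0.62 and 0.24 in bortezomib fish and 0.97, 0.98 and 0.94 in vehicle fish. The difference between the groups was not tested.

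**Figure D5:**
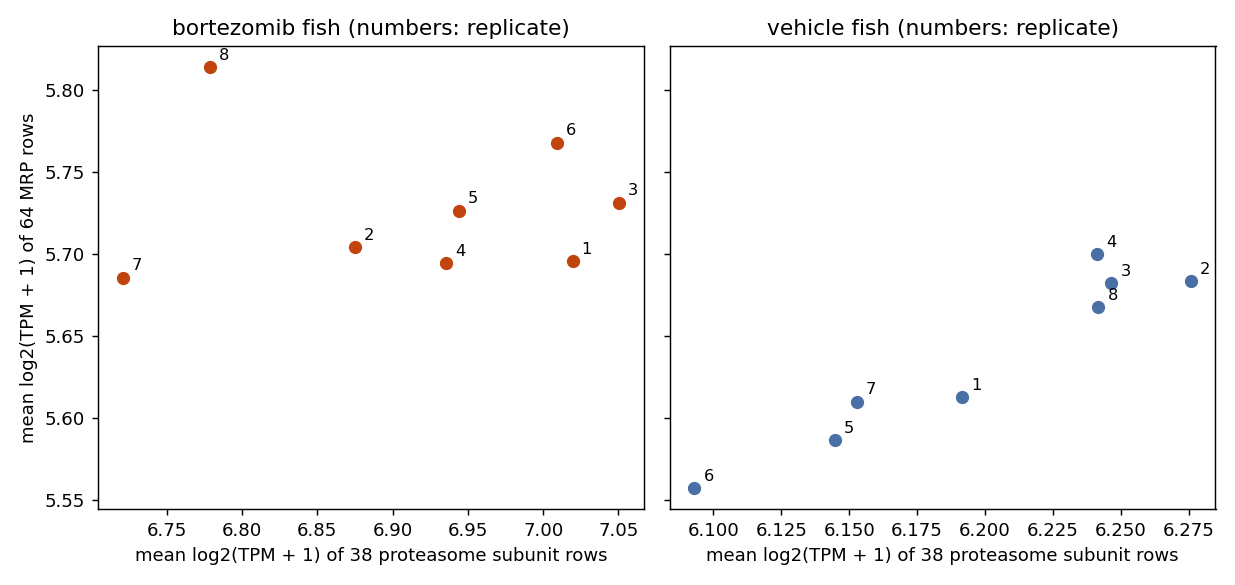
Mean log2(TPM + 1) of the 64 mitochondrial ribosomal rows against that of the 38 proteasome subunit rows, 1 point a fish, labelled by replicate, bortezomib fish in the left panel and vehicle fish in the right. The vehicle fish lie along a rising line (r = 0.96), and bortezomib replicate 8 lies above the others.

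The correlation with the proteasome mean was also taken row by row, on the deposited scale and over all 8 fish of a group. In bortezomib fish, 34 of 64 members (53.1%) had a positive r, and the median r was 0.03. Over all 18491 tested rows that are not proteasome subunit rows, members included, it was 0.12, and 59.5% were positive. In vehicle fish, 55 of 64 members (85.9%) had a positive r, and the median was 0.57. Over the same 18491 rows it was 0.17, and 59.4% were positive. Over the 2432 pairs of a member and a single proteasome row, the median r was 0.08 in bortezomib fish and 0.28 in vehicle fish. Positive values made up 56.6% and 70.6%. Over the 702658 pairs of those 18491 rows with single proteasome rows, the median r was 0.02 and 0.07. There, 51.9% and 55.0% were positive. The vehicle values were highest for MRPL44 (0.98), MRPL34 (0.97) and MRPL24 (0.92), and lowest for MRPL28 (-0.78). In bortezomib fish the highest were MRPS18C (0.83) and MRPL21 (0.81), and the lowest MRPL24 (-0.72) and MRPL27 (-0.71). The means of the small and large subunits correlated with r = 0.78 over bortezomib fish, 0.48 without replicate 8, and with r = 0.71 over vehicle fish. Without the 2 fish farthest in large-subunit mean, r was 0.30 in bortezomib fish and 0.80 in vehicle fish. The fish left out were bortezomib replicates 6 and 8 and vehicle replicates 4 and 5.

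Few of the other genes that build and serve the mitochondrial ribosome passed the test, which 4.86% of all tested rows passed. Of 7 rows for ribosome subunits that carry other names, 1 rose: MRP63, the large-subunit protein also named MRPL57, at 116 ± 11.4 TPM with bortezomib and 96.2 ± 6.11 TPM with vehicle, a log2 fold change of 0.27 ± 0.06 with a limma adjusted p of 0.0244. That call ended under the 3 other scalings, with the pituitary-carrying fish left out, and without bortezomib replicate 6 (adjusted p = 0.0552). The row named ZGMRPL4 was at 72.8 ± 4.15 TPM with bortezomib and 70.9 ± 9.34 TPM with vehicle and did not pass.

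Of 23 rows for ribosome assembly factors, 14 for mitochondrial translation factors, 18 for mitochondrial aminoacyl-tRNA synthetases, 8 for mitochondrial DNA maintenance and transcription and 13 for the mitochondrial unfolded protein response, 0 passed limma's adjusted threshold. Among all tested rows, 3.61% passed as higher and 1.25% as lower, so lists this short would hold few calls at that share. At an unadjusted p under 0.05, 2 assembly rows and 1 mitochondrial DNA row were higher, and 1 assembly, 1 synthetase and 1 unfolded protein response row were lower. The shares of all tested rows were 14.2% higher and 6.94% lower. The median log2 fold changes of these 5 lists were 0.07, 0.05, -0.01, 0.07 and 0.00, against 0.03 over all tested rows. The elongation factor TUFM averaged 100.2 ± 2.50 TPM with bortezomib and 102 ± 8.96 TPM with vehicle. TFAM, which packages mitochondrial DNA, averaged 147 ± 7.52 TPM with bortezomib and 134.5 ± 7.04 TPM with vehicle, with a limma adjusted p of 0.133. Of 12 rows for regulators of mitochondrial biogenesis, 1 fell: MYCA, a fish counterpart of the transcription factor MYC, at 15.5 ± 2.90 TPM with bortezomib and 21.7 ± 2.49 TPM with vehicle, a log2 fold change of -0.48 ± 0.12 with a limma adjusted p of 0.0248. Under the 3 other scalings, 1 MYCB row (34.5 ± 4.18 TPM with bortezomib and 43.6 ± 7.05 TPM with vehicle) also passed as lower, with adjusted p of 0.0277, 0.0306 and 0.0277, against 0.073 on the deposited scale. NSUN4, an assembly factor and methyltransferase of the mitochondrial ribosomal RNA, likewise passed as lower there, with adjusted p of 0.0354, 0.036 and 0.0454, against 0.101 on the deposited scale. IARS2, a tRNA synthetase, passed as lower under the same 3 scalings. Lower calls over all 18529 tested rows were also more numerous there, 421, 455 and 563, against 232 on the deposited scale. Without the 4 fish with pituitary transcripts, the limma adjusted p was 0.124 for that MYCB row, 0.152 for NSUN4 and 0.107 for IARS2. On the deposited scale with 1 fish left out, they passed in 0, 1 and 3 of 16 fits.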

How the data were processed

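RNA from 16 individual brains was sequenced, and bcl2fastq 2.20.0.422 and STAR are named in the submitters' processing notes. The sources used here give no counter, genome build or annotation. The authors deposited 1 table of TPM values, 1 column a fish, each summing to 1000000; TPM keeps no depth, so depth is unknown and no counting interval is given. Symbols are the file's; 0 of its identifiers matched the RefSeq table, but 61 of 62 member symbols did.

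The fit took the 18529 rows that reached 1 TPM in 8 or more fish and left out 8210. It used limma 3.58.1 (R 4.3.3) with eBayes trend on log2(TPM + 1), which understates changes of low genes, and no covariate. Benjamini-Hochberg adjusted p-values were called under 0.05. The procedure was tested on simulated data. Per-fish means were computed in Python 3.11.15 and have no p. No pair of columns was identical.

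Members and gene lists were chosen with earlier results of these data known. Named members are those past the threshold, the 5 highest and 5 lowest fold changes, the 2 most abundant of each subunit, symbols with several rows, rows below the minimum, and a set of known subunits, of which MRPL41 is not analysed here. Other scalings, pseudocounts, filters, covariates and fish left out were tried. Other genes were named after their values were seen.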

Additional observations from a re-analysis of the deposited data

Results flagged for a closer look

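In 5 of 66 sets of 8 fish examined, 1 fish lay apart from the rest of its group by a gap beyond Dixon's 95% critical value, which chance gives in about 1 in 20. Bortezomib replicate 8 was high in MRPS14 (156.4 TPM; the other bortezomib fish at 127 to 139 TPM), MRPS11 (94.6 TPM; the others at 77.7 to 85.7 TPM) and MRPS22 (54.9 TPM; the others at 43.9 to 48.9 TPM), and low in the median log2(TPM + 1) over all tested rows (3.55; the others at 3.83 to 4.02). Bortezomib replicate 7 was high in MRPS18A, at 130.1 TPM, with the other bortezomib fish at 31.6 to 74.9 TPM.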

How the results depend on the processing

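The count of members that rose, 4 on the deposited scale, was 0 with median-of-ratios, upper-quartile or quantile scaling and without the 4 fish with pituitary transcripts (where the fold changes of these members were 0.20 to 0.31, against 0.22 to 0.28), and 9 when the first principal component entered the fit. It was 2 to 5 with 1 fish left out: 2 without bortezomib replicate 4, bortezomib replicate 6, vehicle replicate 3, vehicle replicate 7 or vehicle replicate 8, and 5 without bortezomib replicate 3. With the replicate number as a block it was 1, MRPS16 (adjusted p = 0.0499). The share of all tested rows that were higher also moved. It was 3.61% on the deposited scale, 2.88%, 2.71% and 2.96% under the 3 other scalings, and 1.40% without the fish with pituitary transcripts. With the principal component this share was 10.3%, with the block 2.02%, and with 1 fish left out 1.99% to 4.80%. The component was taken from these same values after the treatment difference had been removed. It therefore left the fold changes as they were (member median 0.11 in both fits) and could change only the spread left between fish. The replicate numbers are not stated to pair the fish. The deviations of same-numbered fish correlated at -0.24 to 0.41. These were not compared with differently numbered fish, so they cannot decide whether the numbers pair the fish. The difference of the per-fish means, bortezomib minus vehicle, was 0.09 over all members, 0.10 in the small and 0.08 in the large subunit, and with quantile scaling 0.0293, 0.0378 and 0.0222. Without the fish with pituitary transcripts these differences were 0.0684, 0.0778 and 0.0606. With 1 fish left out these were 0.08 to 0.10, 0.08 to 0.11 and 0.07 to 0.09, and the small minus large difference was 0.01 to 0.02. The difference over all members was 0.058 with median-of-ratios and 0.0486 with upper-quartile scaling. Measured from each fish's own median over all tested rows, the member mean was 1.87 ± 0.18 with bortezomib and 1.82 ± 0.11 with vehicle. That difference was 0.045, less than the spread between fish. The correlation with the proteasome mean was -0.48 to 0.58 in bortezomib and 0.93 to 0.98 in vehicle fish with 1 fish left out, and 0.89 in vehicle fish without those with pituitary transcripts. The cause of these changes was not tested. Of 702 values of named members under the alternatives, 642 kept their direction and side of the threshold, 38 lost the threshold, 4 passed it and 18 changed sign, all of uncalled members (lowest adjusted p 0.814). With 1 fish left out, MRPS7 (-0.000656) was -0.0163 to 0.0268, the lowest MRPS35 row (0.0218) -0.00698 to 0.0511 and MRPL12 (0.0524) -0.0134 to 0.0865. With sample weights MRPS7 was 0.00984 and that MRPS35 row -0.0331. Under median-of-ratios, upper-quartile and quantile scaling that row was -0.0075, -0.0161 and -0.0377. With quantile scaling MRPS30 (0.0572) was -0.00678 and MRPS12 (0.0523) was -0.0128, and MRPS12 was -0.00766 without the fish with pituitary transcripts. Alternatives that left out MRPS18A or assigned subunits by structure were chosen after seeing the data. Depth is unknown, which limits what can be said of low rows.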

Other observations

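MRPL28, one of the members that rose with bortezomib, had the lowest r with the proteasome mean among vehicle fish, -0.78, where 55 of 64 members were positive and the next lowest were MRPL45 (-0.42) and MRPL13 (-0.34). Vehicle replicate 2 had the lowest MRPL28 level of this group (82.9 TPM) and the highest proteasome mean (6.28). Vehicle replicate 6 had the highest level (116 TPM) and the lowest mean (6.09). This r was not taken with fish left out. IARS2, the mitochondrial isoleucyl-tRNA synthetase, averaged 31.8 ± 6.73 TPM with bortezomib and 63.5 ± 28.6 TPM with vehicle, a log2 difference of -0.87 ± 0.25 with a limma adjusted p of 0.0559. With median-of-ratios, upper-quartile and quantile scaling its adjusted p was 0.0327, 0.0331 and 0.0311. Lower calls over all tested rows were 421, 455 and 563 there, against 232 on the deposited scale. On the deposited scale the adjusted p of IARS2 was 0.107 without the fish with pituitary transcripts. With 1 fish left out it reached 0.103, and IARS2 passed in 3 of 16 fits.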
